A study of Mus musculus with 10 samples.

Results

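The genes described here are 43 genes of lipid metabolism, chosen by symbol from the 38215 genes of the table: the enzymes that make cholesterol (8 from acetyl-CoA to the isoprenoids and 9 from squalene to cholesterol), 6 genes of the SREBP switch and of sterol transfer, 12 genes that make, desaturate and activate fatty acids, and 8 genes of the LXR receptors, sterol efflux, esterification and lysosomal export. RNA of GFP+ splenocytes was sequenced from secondary recipients of a mouse acute myeloid leukaemia, 5 C57BL/6J mice (libraries 1, 3, 4, 5 and 6) and 5 Rag2-/-γc-/- mice (libraries 7 to 11). The leukaemia in both groups carried AML1-ETO and NrasG12D, delivered by the retrovirus MSCV-IRES-GFP to lineage-depleted bone marrow, and in both groups it had first grown in Rag2-/-γc-/- mice. Rag2-/-γc-/- mice lack T, B and NK cells, so the comparison is between growth in immunocompetent hosts and in hosts without these lymphocytes. How many primary leukaemias supplied the secondary recipients is not stated, nor are age and sex. The p-values below therefore cover only the spread between recipients.

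Cells make cholesterol from acetyl-CoA through mevalonate, isoprenoids, squalene and lanosterol. When sterols in the endoplasmic reticulum run low, SCAP carries SREBP proteins to the Golgi, where they are cut into active transcription factors that switch on this pathway (SREBP2) and fatty acid synthesis (SREBP1). INSIG proteins hold SCAP back when sterols are plentiful. Oxysterols made under sterol excess activate the LXR receptors, which, as partners of RXR, switch on genes that export cholesterol, and also SREBP1 and SCD1. The activity of SREBP is set by protein cleavage and need not show in its own mRNA.

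Levels are given as counts scaled to library size (CPM) with the TMM correction for library composition, and a log2 fold change is C57BL/6J minus Rag2-/-γc-/-. A gene is said to have risen or fallen where the adjusted p of the edgeR quasi-likelihood test, over 13966 genes, was under 0.05. Libraries held 28157745 to 62461126 expected counts. The libraries were not equally alike: C57BL/6J library 1 and Rag2-/-γc-/- libraries 10 and 11 had the lowest quality weights of the 10 (0.264, 0.301 and 0.342, against 0.696 to 3.53 for the others). Results are also given without libraries 10 and 11, and without 7, 8 and 9, a split first seen in these data. Library 1 was left out only on its own. In C57BL/6J library 1, mitochondrial genes took 1.34% of counts, against 2.91 to 4.0% in the others. The 13 markers listed for the labelled cells were detected in all libraries, with Ptprc at 410 to 743 CPM and Spi1 at 320 to 483 CPM, but 1 of them rose and 5 fell. Kit, a progenitor receptor, was at 3.21 to 7.52 CPM in C57BL/6J and 0.163 to 0.434 CPM in Rag2-/-γc-/- libraries (log2 4.30, edgeR adjusted p = 7.19e-05), and Cebpa, Cd34, Cd33, Csf1r and Nras fell. Nras, one of the introduced oncogenes, was at 956, 787 and 745 CPM in libraries 7, 8 and 9 and at 301 to 374 CPM in the other 7 libraries, so libraries 7, 8 and 9 stand apart in it, and its part in the results was not tested. Of 9 marker lists compared by an exact two-sided permutation test of summed CPM, 5 differed after Benjamini-Hochberg adjustment. Sums were higher in C57BL/6J recipients for dendritic cell genes (5318 to 6452 against 3508 to 5101 CPM, adjusted p = 0.0238), T cell genes (65.7 to 117 against 20.8 to 47.3 CPM, adjusted p = 0.0238, mostly Cd8a) and NK cell genes (14.4 to 21.8 against 3.07 to 10.3 CPM, adjusted p = 0.0238, mostly Klrk1). They were lower for macrophage genes (2190 to 2968 against 2696 to 3740 CPM, adjusted p = 0.0357, with 77.4% of the difference in means from Axl and Hmox1) and erythroid genes (105 to 198 against 158 to 273 CPM, adjusted p = 0.0429). Some markers had the opposite sign to their sum: Klrb1c of the NK list (log2 -1.37, edgeR adjusted p = 0.115) and Tfrc of the erythroid list (log2 0.59, edgeR adjusted p = 0.284). So did Cd5 of the T cell list (log2 -0.99, edgeR adjusted p = 0.138). In the macrophage list they were Timd4, which rose (log2 1.72, edgeR adjusted p = 0.0301), and Cd68 (log2 0.05, edgeR adjusted p = 0.829). Of the 8 erythroid genes tested, only Epor was called lower. No marker was at 0 in all 10 libraries. Which cells expressed these markers was not tested, and neither was their part in the results below. In bulk RNA fewer cells of a type and less RNA per cell cannot be told apart.

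In C57BL/6J recipients, 7 of the 17 genes of cholesterol synthesis rose, with the largest rises in Fdps and Sqle, while no gene of SREBP control and neither LXR receptor passed the test. All 43 genes passed the filter on low counts. By edgeR, 9 rose (20.9%), against 3.32% of all genes tested, and 2 fell (4.65%), against 4.47% of all. The log2 fold change was above 0 for 33 of the 43, with a median of 0.32, where 7047 of all 13966 genes were above 0 and the median was 0.00. In 6 genes every C57BL/6J library lay above every Rag2-/-γc-/- library, a pattern seen in 4.13% of all genes. In 1 gene every C57BL/6J library lay below, as in 4.37% of all genes. The counts depended on single libraries: the number that rose was 4 and 3 when C57BL/6J libraries 5 and 6 were left out in turn, 4, 3 and 2 when libraries 7, 8 and 9 of the Rag2-/-γc-/- group were, and 17 when its library 10 was. The number that fell was 1 when library 3, 5, 6, 7, 8 or 9 was left out, and 4 when library 10 was. The shares of all genes moved too. Higher were 2.82% and 1.94% without libraries 5 and 6, 2.36%, 2.26% and 2.13% without 7, 8 and 9, and 7.58% without 10. Lower were 2.15 to 2.94% without library 3, 5, 6, 7, 8 or 9, and 9.32% without 10. Across the 17 genes of both sterol lists, 7 rose and none fell, 16 were above 0, and the median was 0.55. The 7 became 3 when library 1, 5, 7 or 11 was left out, 2 when library 6 or 8 was, 1 when library 9 was and 12 when library 10 was, and 3 with a surrogate variable in the model. These fits called 1.94 to 4.33% of all genes higher, except 7.58% without library 10.

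At an unadjusted p under 0.05, 11 of the 17 sterol genes were higher and 0 lower. The share of all genes at that unadjusted level is not given here, so such counts cannot be set against it. DESeq2 called 10 of the 17 higher and 0 lower, where it called 5.75% of all genes higher and 8.27% lower. By limma-voom 5 were higher and 0 lower, against 3.45% and 4.05% of all genes. With sample quality weights limma-voom called 13 higher and 0 lower, in a fit that called 23.7% of all genes higher and 23% lower.

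**Figure D1:**
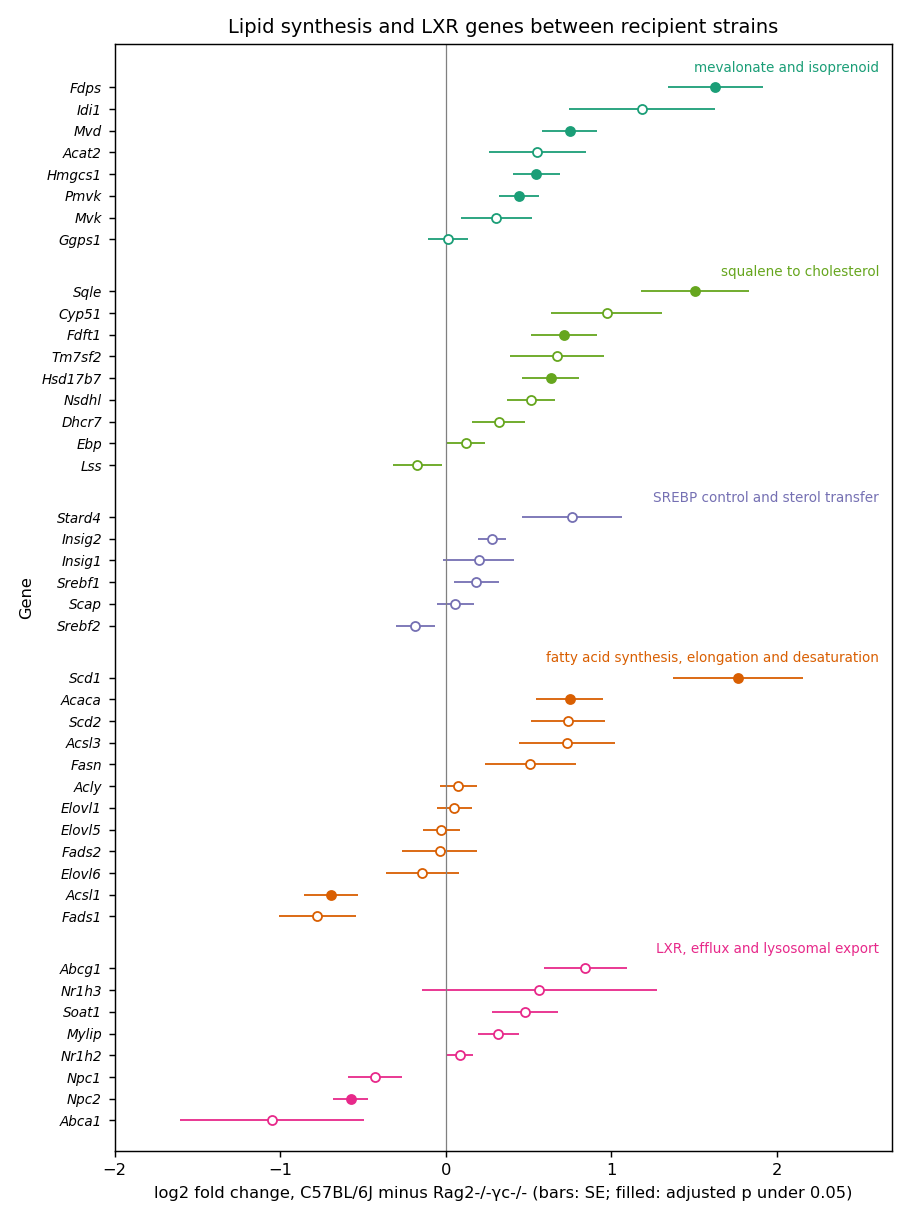
The log2 fold change of each of the 43 genes (x axis, C57BL/6J minus Rag2-/-γc-/-, bars are SE, 5 libraries per group), by role, with filled points for an adjusted p under 0.05. Of the 17 sterol synthesis genes 16 lie to the right of 0, while the fatty acid and LXR genes lie on both sides.

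Of the 8 genes from acetyl-CoA to the isoprenoids, 4 rose and none fell, with a median log2 fold change of 0.55. Hmgcs1 (ENSMUSG00000093930, chr13:119690462-119708086 of GRCm38, plus strand) encodes the synthase that makes HMG-CoA, the substrate of the step that commits carbon to mevalonate. Its levels were 44.2, 31.9, 35.7, 46.4 and 53.4 CPM in C57BL/6J libraries 1, 3, 4, 5 and 6 and 28.3, 29.9, 26.2, 33.9 and 26.2 CPM in Rag2-/-γc-/- libraries 7 to 11. The groups overlapped at 1 point, since Rag2-/-γc-/- library 10 was above C57BL/6J library 3, and the rise was 1.46-fold (log2 0.55 ± 0.14 SE, edgeR adjusted p = 0.0389). Pmvk (chr3:89459118-89469013, plus strand), the phosphomevalonate kinase, was at 26.6, 20.2, 19.1, 24.0 and 27.8 CPM against 16.8, 17.5, 16.8, 19.1 and 16.2 CPM in the same library order. It rose 1.36-fold (log2 0.44 ± 0.12 SE, edgeR adjusted p = 0.0458), with the lowest C57BL/6J library and the highest Rag2-/-γc-/- library both near 19.1 CPM.

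Mvd (chr8:122433596-122443422, minus strand), the decarboxylase that yields isopentenyl diphosphate, was at 20.2, 12.7, 13.1, 16.9 and 22.0 CPM in C57BL/6J and 11.4, 9.35, 8.87, 10.8 and 10.1 CPM in Rag2-/-γc-/- libraries. The groups did not overlap, and Mvd rose 1.68-fold (log2 0.75 ± 0.17 SE, edgeR adjusted p = 0.0197). It overlaps Gm20388 on the opposite strand. Fdps (ENSMUSG00000059743, chr3:89093592-89101967, minus strand) makes farnesyl diphosphate, the branch point between sterols and other isoprenoids. Fdps had the largest fold change of the 17 sterol genes, at 76.4, 33.8, 44.0, 66.7 and 89.8 CPM against 15.9, 16.5, 17.3, 33.0 and 17.8 CPM. All C57BL/6J libraries were above all Rag2-/-γc-/- libraries, but library 10 (33.0 CPM) came close to C57BL/6J library 3 (33.8 CPM). The means were 62.2 ± 23.0 CPM and 20.1 ± 7.26 CPM (SD, n = 5 each), a 3.10-fold rise (log2 1.63 ± 0.29 SE, edgeR adjusted p = 0.00662).

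Idi1, the isomerase that precedes Fdps, did not pass the test although its means were far apart. It measured 30.9, 15.9, 17.9, 39.0 and 42.2 CPM in C57BL/6J libraries and 5.42, 8.52, 7.89, 28.7 and 13.8 CPM in Rag2-/-γc-/- libraries (log2 1.19 ± 0.44 SE, edgeR adjusted p = 0.123). Library 10 alone among the Rag2-/-γc-/- libraries reached into the C57BL/6J range, and without it and library 11 the edgeR adjusted p was 0.00235. That fit called 19.3% of all genes higher, and its split was chosen after these data were seen, so it is no separate evidence for Idi1. Acat2, Mvk and Ggps1 had log2 fold changes of 0.55, 0.31 and 0.01, with adjusted p of 0.253 to 0.953 by edgeR.

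In the steps from squalene to cholesterol, 3 of 9 genes rose and none fell, with a median of 0.63. Sqle (ENSMUSG00000022351, chr15:59315077-59331192, plus strand), the squalene epoxidase and a rate-limiting step, was at 37.7, 31.3, 37.7, 55.8 and 72.8 CPM in C57BL/6J libraries. In Rag2-/-γc-/- libraries it was at 10.2, 10.4, 14.1, 30.2 and 18.2 CPM. No Rag2-/-γc-/- library reached the lowest C57BL/6J library, and only library 10 came near it. Sqle rose 2.84-fold (log2 1.51 ± 0.33 SE, edgeR adjusted p = 0.0184). Fdft1 (chr14:63145153-63177793, minus strand), squalene synthase, was at 30.6, 17.9, 20.8, 28.4 and 32.5 CPM against 13.0, 13.3, 14.8, 22.2 and 16.0 CPM, a 1.64-fold rise (log2 0.71 ± 0.20 SE, edgeR adjusted p = 0.0482). The groups overlapped through Rag2-/-γc-/- library 10. Fdft1 overlaps Ctsb, which is on the opposite strand and has a mean expected count of 28442 against 819 for Fdft1, and the strand of the reads is not stated.

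Hsd17b7 (chr1:169949535-169969241, minus strand), a sterol 3-keto reductase, was at 28.2, 22.2, 31.2, 31.8 and 35.7 CPM in C57BL/6J and 21.9, 22.2, 21.2, 12.3 and 18.3 CPM in Rag2-/-γc-/- libraries. The lowest C57BL/6J library lay just above the highest Rag2-/-γc-/- library, both at 22.2 CPM when rounded, and here library 10 was the lowest of its group. Hsd17b7 rose 1.55-fold (log2 0.63 ± 0.17 SE, edgeR adjusted p = 0.0469). Nsdhl, a C4-demethylation dehydrogenase, had groups that did not overlap, at 12.6, 10.5, 12, 14.7 and 16.4 CPM against 9.26, 9.82, 9.84, 10.1 and 7.16 CPM. It did not pass the test (log2 0.52 ± 0.15 SE, edgeR adjusted p = 0.0541). Cyp51, the lanosterol demethylase, was at 36.9, 32.0, 41.6, 69.9 and 88.1 CPM against 18.6, 19.7, 21.9, 48.8 and 27.9 CPM (log2 0.97 ± 0.34 SE, edgeR adjusted p = 0.103). Library 10 was again the one Rag2-/-γc-/- library inside the C57BL/6J range. The remaining Lss, Tm7sf2, Ebp and Dhcr7 had log2 fold changes of -0.17, 0.67, 0.12 and 0.32, none past the threshold.

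**Figure D2:**
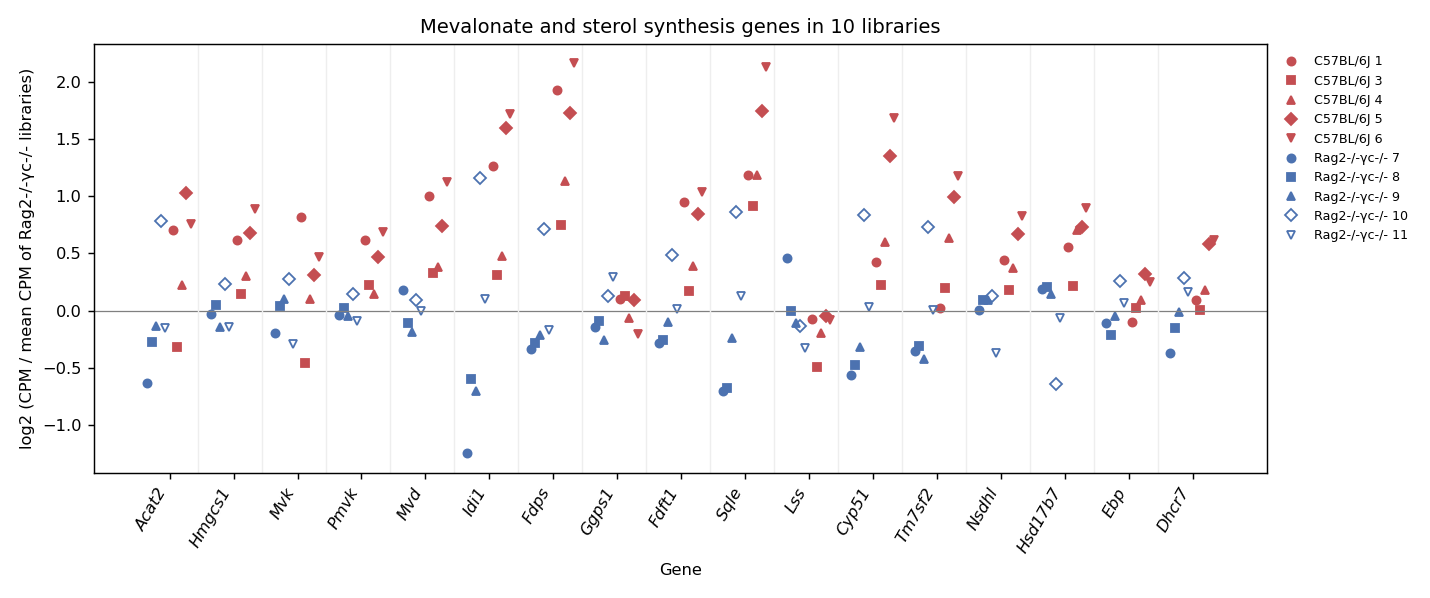
Level of each sterol synthesis gene in each library (y axis, log2 of CPM over the mean of the 5 Rag2-/-γc-/- libraries), with the groups in different colours. For Fdps and Sqle no Rag2-/-γc-/- library reaches the C57BL/6J libraries, and Rag2-/-γc-/- library 10 is the highest of its group for 13 of the 17 genes.

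Leaving out 1 library removed some of these calls. Fdps passed in all 10 such fits (edgeR adjusted p up to 0.0231). Sqle passed in 9, with adjusted p = 0.0529 when library 9 was left out. Mvd was at 0.0511, 0.0538 and 0.0568 when library 6, 8 or 9 was left out. Hmgcs1 failed when any of libraries 1, 5, 6, 7, 8, 9 and 11 was left out (up to 0.1). Pmvk passed only when library 4 or 10 was left out (up to 0.121 otherwise). Fdft1 and Hsd17b7 passed only when library 3 or 10 was left out (up to 0.125 and 0.12 otherwise).

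Promoters of 34 of the 43 genes were found in the RefSeq table (GRCm38.p6, 250 bases before the start to 50 after); Sqle, Fdft1, Fdps, Scd1, Scd2, Fads1, Abcg1, Npc1 and Stard4 had no entry. They are shown for 3 genes of sterol synthesis that rose and for Npc2, a lysosomal gene that fell, so that the letters of a sterol element and of CCAAT, the NF-Y box often found beside it, can be compared. Capitals mark TCACNCCAC, searched as the sterol element, and CCAAT or its reverse complement ATTGG; both strands were searched and no 2 matches overlapped in these promoters. The sequences are of chr13:119690101-119690400 (plus strand), chr8:122443373-122443672 (minus strand), chr1:169969156-169969455 (minus strand) and chr12:84773063-84773362 (minus strand), each written along the gene.
Hmgcs1: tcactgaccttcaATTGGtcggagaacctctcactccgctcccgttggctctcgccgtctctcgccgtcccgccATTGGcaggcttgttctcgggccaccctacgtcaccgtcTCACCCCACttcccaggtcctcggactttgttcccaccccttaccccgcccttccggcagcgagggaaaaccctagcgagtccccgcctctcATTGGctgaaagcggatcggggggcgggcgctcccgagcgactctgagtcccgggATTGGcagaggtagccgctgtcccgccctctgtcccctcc
Mvd: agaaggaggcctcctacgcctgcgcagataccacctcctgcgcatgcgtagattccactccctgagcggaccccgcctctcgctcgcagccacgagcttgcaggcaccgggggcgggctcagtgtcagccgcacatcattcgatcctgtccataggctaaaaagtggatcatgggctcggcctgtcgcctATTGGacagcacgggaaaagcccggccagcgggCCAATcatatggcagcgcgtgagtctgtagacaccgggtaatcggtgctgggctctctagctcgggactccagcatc
Hsd17b7: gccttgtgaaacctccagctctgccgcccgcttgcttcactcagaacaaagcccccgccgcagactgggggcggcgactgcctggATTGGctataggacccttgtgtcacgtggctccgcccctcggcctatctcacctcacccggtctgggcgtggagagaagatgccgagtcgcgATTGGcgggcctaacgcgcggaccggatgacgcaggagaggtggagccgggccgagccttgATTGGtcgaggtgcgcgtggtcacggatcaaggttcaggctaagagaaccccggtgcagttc
Npc2: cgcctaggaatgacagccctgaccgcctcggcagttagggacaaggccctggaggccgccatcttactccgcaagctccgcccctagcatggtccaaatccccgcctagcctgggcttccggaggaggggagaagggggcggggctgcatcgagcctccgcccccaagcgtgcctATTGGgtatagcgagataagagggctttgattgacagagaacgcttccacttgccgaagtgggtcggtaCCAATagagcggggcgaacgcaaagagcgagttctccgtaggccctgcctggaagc
The Hmgcs1 promoter held 1 sterol element, 137 bases before the start, and 4 CCAAT boxes. Mvd held 2 CCAAT boxes, Hsd17b7 held 3, and Npc2, which fell, held 2. Pmvk, which also rose but is not shown, held 1 CCAAT box, 136 bases before the start, and no sterol element. Over the gene set, TCACNCCAC was in the promoters of 2 of 34 genes (Hmgcs1, and Acsl1 in its second promoter, 5.88%) against 388 of 27025 genes in the table (1.44%). CCAAT was in 26 of 34 (76.5%) against 11096 of 27025 (41.1%). An LXR element, searched as AGGTCA repeated after a gap of 4 bases with up to 2 mismatches, was in 2 of 34 (Acsl3 and Dhcr7, 5.88%) against 3.47% of all genes. These are matches of letters only.

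None of the 6 genes of SREBP control and sterol transfer passed the test by edgeR. By unadjusted p under 0.05, 2 were higher, with no share of all genes to set beside that count. DESeq2 called 1 higher (5.75% of all genes), limma-voom 0 (3.45%) and limma-voom with sample quality weights 2 (23.7%). Srebf1 was at 98.8, 122, 143, 165 and 158 CPM in C57BL/6J and 118, 115, 123, 138 and 109 CPM in Rag2-/-γc-/- libraries (log2 0.19 ± 0.14 SE, edgeR adjusted p = 0.396). Srebf2 was at 328, 457, 447, 460 and 520 CPM against 551, 501, 525, 491 and 444 CPM, with the opposite sign (log2 -0.18 ± 0.12 SE, edgeR adjusted p = 0.339). Both ranges overlapped. Insig1, itself a target of SREBP and a brake on it, was at 37.3, 23.9, 35.0, 42.0 and 55.3 CPM against 33.2, 33.7, 39.4, 39.9 and 22.3 CPM (log2 0.20 ± 0.21 SE, edgeR adjusted p = 0.564). Insig2 had all C57BL/6J libraries above all Rag2-/-γc-/- libraries, at 39.4, 43.2, 39.1, 40.7 and 42.7 CPM against 36.8, 36.0, 31.2, 30.1 and 34.9 CPM. The difference was small (log2 0.28 ± 0.09 SE) and did not pass the test (edgeR adjusted p = 0.0722). Stard4, a sterol transfer protein, was at 31.9, 18.8, 25.2, 35.0 and 36.0 CPM against 9.70, 12.8, 13.7, 32.4 and 18.1 CPM, and Rag2-/-γc-/- library 10 was again inside the C57BL/6J range (log2 0.76 ± 0.30 SE, edgeR adjusted p = 0.143). Scap had a log2 fold change of 0.06.

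Among the 12 fatty acid genes, 2 rose and 1 fell, with a median of 0.06, and 7 of 12 were above 0. Acaca (chr11:84129672-84401651, plus strand), the carboxylase that makes malonyl-CoA, was at 46.6, 46.6, 47.3, 68.9 and 65.2 CPM in C57BL/6J libraries and 23.0, 26.5, 30.8, 48.8 and 34.3 CPM in Rag2-/-γc-/- libraries. Only Rag2-/-γc-/- library 10 overlapped the other group, and Acaca rose 1.68-fold (log2 0.75 ± 0.20 SE, edgeR adjusted p = 0.045). Scd1 (ENSMUSG00000037071, chr19:44394451-44407709, minus strand), the stearoyl-CoA desaturase that puts the double bond into oleate, was at 60.3, 15.4, 22.8, 50.5 and 43.1 CPM against 13.7, 13.1, 15.4, 9.34 and 4.81 CPM. C57BL/6J library 3 and Rag2-/-γc-/- library 9 met at 15.4 CPM, and the means were 38.4 ± 18.8 CPM and 11.3 ± 4.24 CPM (SD, n = 5 each). Scd1 rose 3.41-fold, the largest rise of the 43 genes (log2 1.77 ± 0.39 SE, edgeR adjusted p = 0.02).

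Acsl1 (chr8:46471041-46536051, plus strand), an acyl-CoA synthetase of fatty acid activation, fell. It was at 39.9, 36.5, 45.5, 41.1 and 32.6 CPM in C57BL/6J and 65.8, 71.7, 82.5, 52.5 and 43.6 CPM in Rag2-/-γc-/- libraries, 1.62-fold higher in the latter (log2 -0.69 ± 0.16 SE, edgeR adjusted p = 0.027). Library 11 of the Rag2-/-γc-/- group overlapped the C57BL/6J range. Scd1 passed without each library in turn (adjusted p up to 0.0496). Acaca passed only when library 1 or 10 was left out (up to 0.113 by edgeR otherwise). Acsl1 did not pass when library 3, 5, 6, 7, 8 or 9 was left out (up to 0.0733).

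Scd2, a paralog of Scd1 and at 97.1 CPM per kilobase of merged exon the most abundant of the 43 genes, did not pass the test, at 470, 517, 636, 845 and 850 CPM against 505, 408, 416, 428 and 229 CPM (log2 0.74 ± 0.22 SE, edgeR adjusted p = 0.0666). Fasn, the fatty acid synthase, was at 220, 217, 190, 335 and 277 CPM against 118, 111, 123, 273 and 244 CPM (log2 0.51 ± 0.28 SE, edgeR adjusted p = 0.258). Here libraries 10 and 11 were both within the C57BL/6J range and libraries 7, 8 and 9 below it. Without libraries 10 and 11 the log2 fold change of Fasn was 1.08 (edgeR adjusted p = 0.00174), in a fit that called 19.3% of all genes higher. Without 7, 8 and 9 it was -0.06, where 1.01% of all genes were called higher. This split was chosen after these data were seen, so it is no separate evidence for Fasn. Fads1, the delta-5 desaturase of polyunsaturated fatty acids, was at 102, 165, 142, 155 and 145 CPM against 318, 291, 303, 137 and 166 CPM (log2 -0.77 ± 0.23 SE, edgeR adjusted p = 0.0687). Libraries 7, 8 and 9 were far above every C57BL/6J library, library 11 lay just above the highest of them, and library 10 was within their range. Acly, Elovl1, Elovl5, Elovl6, Fads2 and Acsl3 had log2 fold changes of -0.14 to 0.74, none past the threshold.

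**Figure D3:**
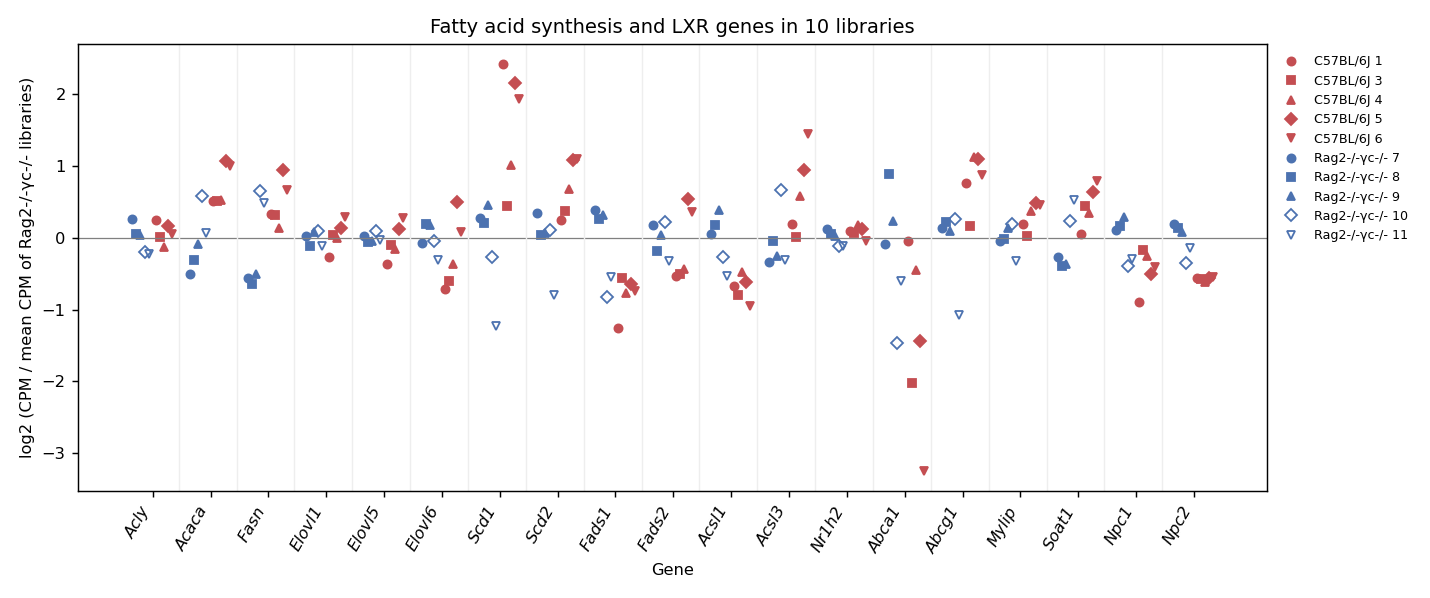
Level of each fatty acid and LXR gene except Nr1h3 in each library (y axis, log2 of CPM over the mean of the 5 Rag2-/-γc-/- libraries), with the groups in different colours. Scd1 is high in C57BL/6J libraries, Npc2 is low in all 5 of them, and Abca1 spreads widely in both groups.

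In the LXR group of 8 genes, none rose and 1, Npc2, fell, with a median of 0.20. At an unadjusted p under 0.05, 3 were higher and 2 lower, with no share of all genes to set beside these counts. DESeq2 called 1 higher and 1 lower, against 5.75% and 8.27% of all genes. By limma-voom it was 0 and 1, against 3.45% and 4.05%. With sample quality weights limma-voom called 3 and 3, in a fit that called 23.7% and 23% of all genes. Nr1h2 (LXR beta) was at 109, 107, 116, 111 and 99.2 CPM in C57BL/6J and 112, 106, 104, 94.5 and 94.3 CPM in Rag2-/-γc-/- libraries (log2 0.09 ± 0.08 SE, edgeR adjusted p = 0.48). Nr1h3 (LXR alpha) was scarce, at 1.83, 1.16, 0.685, 0.457 and 0.176 CPM against 0.0678, 0.355, 0.326, 0.882 and 1.29 CPM (log2 0.56 ± 0.71 SE, edgeR adjusted p = 0.625). Its spread within each group was larger than the difference. Per kilobase of merged exon, as the mean of 10 libraries, Nr1h2 was at 31.4 CPM and Nr1h3 at 0.288 CPM, the lowest of the 43 genes.

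Among LXR targets, Abca1, which exports cholesterol to apolipoproteins, was at 11.4, 2.89, 8.58, 4.31 and 1.23 CPM against 11, 21.8, 13.8, 4.25 and 7.74 CPM (log2 -1.05 ± 0.55 SE, edgeR adjusted p = 0.25). Abca1 was lowest of all 10 libraries in C57BL/6J library 6 and highest in Rag2-/-γc-/- library 8. Of the 16 macrophage markers, 13 were also lowest of all in library 6 and 10 were highest in library 8, while Axl, Cd68 and Timd4 were not lowest in library 6, a comparison made after values were seen. Their part was not tested. Abcg1, the partner exporter to lipoprotein particles, had the opposite sign, at 41.8, 27.6, 54.0, 52.7 and 45.3 CPM against 27.1, 28.7, 26.3, 29.6 and 11.7 CPM (log2 0.84 ± 0.25 SE, edgeR adjusted p = 0.0622). Mylip, which marks lipoprotein receptors for degradation, was at 34.3, 30.6, 39.1, 42.1 and 41.6 CPM against 29.3, 29.8, 33.0, 34.4 and 24.0 CPM (log2 0.32 ± 0.12 SE, edgeR adjusted p = 0.138). Soat1, which esterifies cholesterol, had a log2 fold change of 0.48, with values of 108 to 180 CPM against 79.3 to 150 CPM.

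Npc2 (ENSMUSG00000021242, chr12:84754560-84773112, minus strand), the soluble carrier of cholesterol out of lysosomes, was at 97.2, 95.7, 93.2, 96.6 and 97.7 CPM in C57BL/6J libraries and 164, 158, 151, 112 and 130 CPM in Rag2-/-γc-/- libraries. The 5 C57BL/6J libraries lay within a narrow band below all Rag2-/-γc-/- libraries, and the fall was 1.49-fold (log2 -0.57 ± 0.10 SE, edgeR adjusted p = 0.00762, up to 0.0246 without 1 library). Npc1, its membrane partner, was at 58.5 to 96.8 CPM against 83.0 to 133 CPM (log2 -0.42 ± 0.16 SE, edgeR adjusted p = 0.134).

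**Figure D4:**
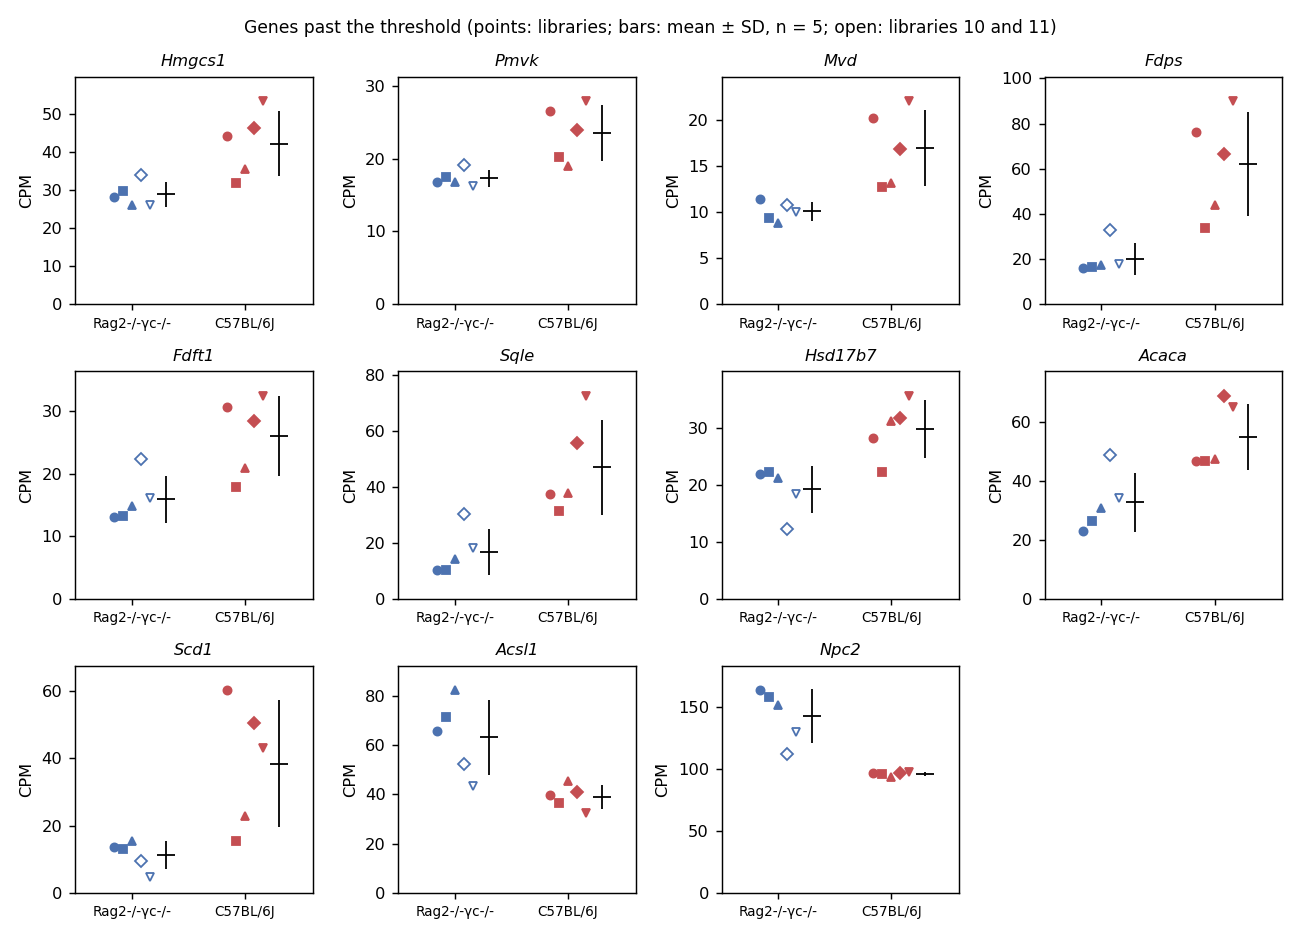
CPM of the genes past the threshold in each library (points), with the mean ± SD of 5 libraries per group (bars) and Rag2-/-γc-/- libraries 10 and 11 as open points. For Fdps the means are 62.2 and 20.1 CPM, for Scd1 38.4 and 11.3 CPM, and for Npc2 the Rag2-/-γc-/- libraries are all above the C57BL/6J libraries.

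Of 65 other genes of the pathway, 48 were tested, with a median of -0.01. Of these, 2 rose (4.17%, against 3.32% of all genes) and 5 fell (10.4%, against 4.47% of all genes). Pltp, an LXR target that moves phospholipids between lipoproteins, rose 1.69-fold, at 161, 163, 216, 206 and 202 CPM against 95.4, 125, 109, 137 and 92.3 CPM (log2 0.76 ± 0.13 SE, edgeR adjusted p = 0.00633). Rxra, the receptor partner of LXR, rose as well, at 12.2 to 29.4 CPM against 8.73 to 13.9 CPM (log2 0.91 ± 0.22 SE, edgeR adjusted p = 0.027), but not when library 3, 6, 7 or 9 was left out (up to 0.0711). Apoe, a lipoprotein ligand and another LXR target, fell, at 72.1, 78.0, 75.4, 45.9 and 66.3 CPM against 215, 211, 182, 189 and 219 CPM. It was 3.01-fold higher in Rag2-/-γc-/- recipients (log2 -1.59 ± 0.14 SE, edgeR adjusted p = 8.62e-05). Lpl, a lipase that is also an LXR target, fell too, from 162 ± 39.0 CPM in Rag2-/-γc-/- to 74.4 ± 23.6 CPM in C57BL/6J libraries (log2 -1.12 ± 0.23 SE, edgeR adjusted p = 0.0144). Apoe and Lpl are also expressed by macrophages. Of the 16 macrophage markers 3 fell (Hmox1, Slc40a1 and Marco), 1 rose (Timd4) and 12 were not called, C1qa, C1qb, C1qc, Cd68 and Adgre1 among them, and without Axl and Hmox1 the sum was 227 to 442 CPM against 386 to 691 CPM. Their part was not tested. Nceh1, a cholesteryl ester hydrolase, fell from 16.1 ± 1.49 CPM to 9.29 ± 1.48 CPM (edgeR adjusted p = 0.0041), the errors being SD over 5 libraries. Rxrb was at 73.4 ± 4.13 CPM against 91.0 ± 8.38 CPM (edgeR adjusted p = 0.0448), and lost the call when any of libraries 3 to 9 was left out (up to 0.125). Cyp46a1, a cholesterol hydroxylase, was near the limit of detection, at 0.0475 ± 0.031 CPM against 0.42 ± 0.0697 CPM (edgeR adjusted p = 0.00182).

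The same few libraries were at the ends of the range for most sterol genes. C57BL/6J library 6 was the highest of its group for 12 of the 17 sterol genes and library 3 the lowest for 13. Rag2-/-γc-/- library 10 was the highest of its group for 13 of 17. Libraries 7, 8, 9 and 11 were below all 5 C57BL/6J libraries for 14, 13, 13 and 11 of the 17 genes, and library 10 for 5, lying within the C57BL/6J range for 11. Without libraries 10 and 11, 20 of the 43 genes rose and 4 fell, where 19.3% of all genes rose and 17.4% fell. Fdps was then at 1.91 (edgeR adjusted p = 0.00141), Sqle at 2.03 (0.000883), Scd1 at 1.45 (0.0187) and Npc2 at -0.71 (0.000187). Without libraries 7, 8 and 9, none of the 43 rose or fell by edgeR, where 1.01% of all genes rose and 0.87% fell. In that fit 12 were higher and 1 lower at an unadjusted p under 0.05, with no share of all genes to set beside these counts. The 17 sterol genes then had a median log2 fold change of 0.45, with 15 above 0, Fdps at 1.30 (adjusted p = 0.194), Sqle at 0.97 (0.268) and Scd1 at 2.45 (0.0825). Npc2 was at -0.33 (0.15). In that fit Apoe was at -1.59 (edgeR adjusted p = 0.00521).

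**Figure D5:**
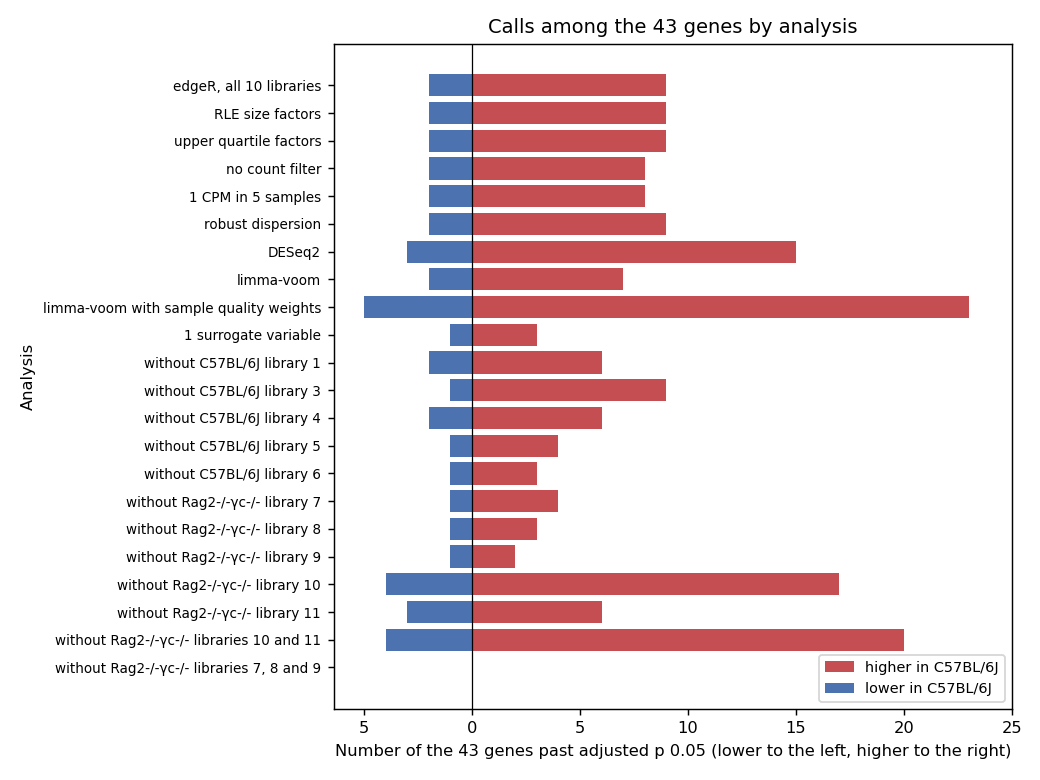
Number of the 43 genes past an adjusted p of 0.05 in each analysis (x axis, higher in C57BL/6J to the right and lower to the left). The main analysis called 9 higher and 2 lower, and the counts ran from 0 to 23 higher, the 23 in an analysis that called 23.7% of all genes higher.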

How the data were processed

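Poly(A)-selected RNA was sequenced as single reads, per the labels' protocols. The authors deposited RSEM expected counts per gene in 1 table; cutadapt 1.11, STAR 2.5.2a, RSEM 1.2.30, edgeR and GRCm38 are named in the submitters' processing notes, while the sources used here give neither the annotation release nor the strand setting. RSEM divides reads that match several genes, so 15.3 to 17.3% of a library's values were not whole, and values of close relatives such as Scd1 and Scd2 depend on that division. Expected counts were rounded. The 43 genes were matched by symbol, and these members, the other lists and the tests were chosen with earlier results of these data known.

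Groups came from the sample titles. Rounded counts were tested with edgeR 4.0.16 (R 4.3.3): TMM, filterByExpr (minimum count 10, minimum total 15), the quasi-likelihood F test on group, and Benjamini-Hochberg adjustment over 13966 genes. The SE is the unshrunken coefficient over the square root of F. Tests of summed marker CPM were exact permutation tests over 252 assignments. Within groups, each of the 20 library pairs differed beyond counting noise (chi-square per degree of freedom 8.64 to 203), so none looked like a repeat of another. All 10 libraries were treated as separate, but this check cannot show whether recipients shared a primary leukaemia. Alternatives were DESeq2 1.42.0, limma 3.58.1 (voom), other scalings and filters, a surrogate variable (sva 3.50.0), each library left out, and libraries 10 and 11 or 7, 8 and 9 left out, a split first seen in these data. The test was checked on simulated counts, drawn separately for each gene and with no split among libraries. That check therefore does not cover the split between libraries 7, 8 and 9 and libraries 10 and 11. All members are accounted for. Library values are given for genes past the threshold, for those whose groups do not overlap, for the smallest p among the rest of each role, and for a fixed list of regulators and rate-limiting enzymes. Lengths are GENCODE M21 merged exons.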

Additional observations from a re-analysis of the deposited data

Results flagged for a closer look

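In 86 groups of 5 libraries (43 genes in each strain), 7 had 1 library whose gap to the nearest other was more than 0.71 of the range; chance gives about 1 in 20 groups. Rag2-/-γc-/- library 10 was the high one for 4 genes: Acat2 (11.2 CPM, the others 4.19 to 5.90), Fdps (33.0 CPM, the others 15.9 to 17.8), Tm7sf2 (6.60 CPM, the others 2.97 to 4.0) and Acsl3 (9.51 CPM, the others 4.73 to 5.80). Rag2-/-γc-/- library 11 was the low one for Nsdhl (7.16 CPM, the others 9.26 to 10.1) and Abcg1 (11.7 CPM, the others 26.3 to 29.6). C57BL/6J library 1 was the low one for Scap (70.7 CPM, the others 98.9 to 107), and that library also had the lowest mitochondrial share and the lowest quality weight.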

How the results depend on the processing

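No paired analysis was possible because the library numbers of the groups do not overlap and no donor is named. The 9 higher members (3.32% of all genes) became 15 with DESeq2 (5.75%), 23 with quality weights (23.7%), 3 with a surrogate variable (2.51%), 2 to 17 leaving out 1 library (1.94 to 7.58%), 20 without libraries 10 and 11 (19.3%) and 0 without 7, 8 and 9 (1.01%). The 2 lower members (4.47%) became 5 with quality weights (23%), 1 with the surrogate variable (2.33%), 1 to 4 leaving out 1 library (2.15 to 9.32%), 4 (17.4%) and 0 (0.87%). The 2 higher other pathway genes (3.32% of all genes) became 8 with quality weights (23.7%) and 1 with the surrogate variable (2.51%). They became 1 to 3 leaving out 1 library (1.94 to 7.58%), 5 without libraries 10 and 11 (19.3%) and 0 without 7, 8 and 9 (1.01%). The 5 lower ones (4.47%) became 16 with quality weights (23%) and 4 to 8 leaving out 1 library (2.15 to 9.32%). They became 11 without libraries 10 and 11 (17.4%) and 1 without 7, 8 and 9 (0.87%). Groups that do not overlap, 6 above and 1 below, became 6 to 15 and 1 to 2 leaving out 1 library, 18 and 4 without libraries 10 and 11, and 10 and 2 without 7, 8 and 9. Fewer libraries make such a pattern more frequent in every gene: over all genes the shares were 4.13% and 4.37% with all libraries, 4.35 to 7.36% and 4.61 to 7.6% leaving out 1, 20.7% and 20.3% without 10 and 11, and 10% and 9.62% without 7, 8 and 9. LXR elements at 1 mismatch gave 0, against 2. The cause was not tested.

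Sign changes were in genes that did not pass in the main analysis: Ggps1 (surrogate variable -0.12, without 7, 8 and 9 -0.20, leaving out 1 library -0.04 to 0.10), Lss (0.06 without 7, 8 and 9), Ebp (-0.03 and -0.04), Insig1 (-0.02 with weights), Acly (-0.03 with weights, -0.05 without 10 and 11), Fasn (-0.06), Elovl1 (-0.02 to 0.12), Elovl5 (0.01 with weights, 0.00 without 10 and 11, -0.11 to 0.05), Elovl6 (0.04), Fads2 (-0.23 to 0.07) and Nr1h3 (-0.34). Over 50 genes, 872 of 1048 gene and alternative pairs kept direction and side of the threshold, which includes genes that were never called. The called members were less stable. Of 21 alternatives, Pmvk and Fdft1 lost the call in 12, Hsd17b7 and Acaca in 10, Hmgcs1 in 9 and Acsl1 in 8. Mvd lost it in 5, Sqle and Scd1 in 2, and Fdps and Npc2 in 1. The low counts of Nr1h3 and Cyp46a1 limit what depth can show.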
